A study of Homo sapiens and Mus musculus with 12 samples.

Results

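The genes described here are 59 regulators and markers of the cell cycle, chosen by symbol as one functional module: cyclins and cyclin-dependent kinases (CDKs), CDK inhibitors, E2F and mitotic transcription factors, genes of DNA replication, and genes of mitosis. All 59 were found by symbol among the 22021 genes of the mouse table and, under the human symbols, among the 18304 genes of the human table, and all 59 passed the filter on low counts in both. By textbook role, 27 belong to the G1 and S phases (called G1/S below), 29 to G2 and mitosis (called G2/M below), and 3 are CDK inhibitors. RNA was sequenced from 12 libraries, 3 for each of 4 groups. Spleen NK cells came from mice on a C57BL/6J background aged 8 to 12 weeks, all of which carried Ehmt2 flox/flox (loxP sites in both copies of Ehmt2, the gene of a methyltransferase that places H3K9me2 on histone H3). KO mice carried in addition Ncr1 iCre, in which the promoter of the NKp46 gene drives Cre, so that deletion took place in NKp46+ cells only once they had begun to express it; WT mice served as controls. The titles of the KO samples name EHMT2 while their genotype label reads Ezh2-KO, and they were grouped by title. NK92MI, a single human NK cell line that grows without added IL-2, was treated with BIX-01294, an inhibitor of the catalytic activity of EHMT2, or with its solvent DMSO; the dose and time for the sequenced cells are not given in the sources used here. Nothing in the labels says whether the replicates of a group were separate animals or cultures, so the p-values measure the spread between these libraries, which may be technical.

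A dividing cell passes from G1, in which it commits to division, through S phase, in which DNA is copied, to G2 and mitosis. D-type cyclins with CDK4 and CDK6 relieve the block that RB1 places on E2F factors, which then switch on genes of DNA synthesis, and later a second wave of genes is switched on by MYBL2 and FOXM1 for mitosis. Many genes of this second wave are held silent in resting cells by the DREAM complex through promoter elements known as the CHR. NK cells divide in the bone marrow and in response to cytokines, and most NK cells of a resting spleen are out of cycle, whereas a cell line divides continuously.

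Both arms of this program are known for short sequence elements in the promoter, and 3 human promoters are shown because their genes had the smallest p-values in NK92MI cells among the G1/S members with E2F letters (RRM2) and among the G2/M members with CHR letters (CDC20 and KIF20A). Each run holds the 250 bases before the RefSeq start on GRCh38.p14, plus strand, 5′ to 3′. Capitals mark the letters searched on both strands: CCAAT, the CHR letters (TTTGAA, or else TTTAAA), and the E2F letters (TTCCCGC, with its variant spellings TTGGCGC, likewise the variant TTCGCGC, likewise the variant TTGCCGC). No string of one kind contains one of another, though CCAAT on the other strand can share bases with TTGGCGC. The RRM2 run lies at chr2:10122318-10122567, CDC20 at chr1:43358731-43358980 and KIF20A at chr5:138178862-138179111.
RRM2: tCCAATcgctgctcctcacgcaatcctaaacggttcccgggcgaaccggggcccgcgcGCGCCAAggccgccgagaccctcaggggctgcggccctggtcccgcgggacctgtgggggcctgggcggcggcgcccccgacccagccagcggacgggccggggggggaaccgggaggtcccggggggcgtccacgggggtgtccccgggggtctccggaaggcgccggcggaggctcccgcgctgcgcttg
CDC20: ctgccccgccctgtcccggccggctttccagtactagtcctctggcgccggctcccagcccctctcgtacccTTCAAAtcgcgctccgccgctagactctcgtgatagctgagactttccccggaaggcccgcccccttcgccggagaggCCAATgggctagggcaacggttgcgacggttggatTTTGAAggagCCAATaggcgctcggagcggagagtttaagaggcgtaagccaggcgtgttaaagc
KIF20A: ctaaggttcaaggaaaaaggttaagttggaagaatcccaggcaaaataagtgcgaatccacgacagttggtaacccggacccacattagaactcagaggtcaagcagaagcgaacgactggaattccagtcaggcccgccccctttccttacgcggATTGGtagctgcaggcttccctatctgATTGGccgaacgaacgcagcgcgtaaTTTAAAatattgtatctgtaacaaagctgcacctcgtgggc

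In the CDC20 run the CHR letters TTTGAA start 65 bases before the start and stand between CCAAT at −100 and CCAAT at −55, and a further match on the other strand, TTCAAA, starts at −178. In KIF20A, TTTAAA starts at −41, downstream of CCAAT on the other strand (ATTGG) at −94 and −67. RRM2 holds E2F letters (GCGCCAA, which is TTGGCGC read on the other strand) at −192 and CCAAT at −249. A second RefSeq start of RRM2, whose window overlaps the printed one and is not printed, has CCAAT and CHR letters and no E2F letters. RefSeq promoters were matched for 47 of the 59 members, 12 of them with more than 1 start, and a gene was counted where any of its windows held the letters. CHR letters stood in 18 of 23 G2/M promoters (78.3%), in 4 of 21 G1/S promoters (19.0%) and in 25.5% of the promoters of 27305 genes. CCAAT and CHR letters occurred together in 69.6% of G2/M promoters, 9.52% of G1/S promoters and 9.29% of all. E2F letters stood in 57.1% of G1/S promoters, 26.1% of G2/M promoters and 13% of all. CHR letters were in 11 of the 14 matched G2/M members that fell with BIX-01294 and in 2 of the 3 that rose. A match is a string of letters in this window and not a measured site.

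Library totals lay between 25891680 (WT replicate 2) and 37438868 counts in mouse and between 16579469 and 17165446 in human. Levels are given as CPM (counts scaled to TMM-normalized library size), the treated group first and in the order of the columns. Ehmt2 itself was counted at 171, 143 and 137 CPM in KO and 275, 284 and 285 CPM in WT replicates, a log2 fold change, given here with its standard error (SE), of −0.91 (SE 0.10, adjusted p = 0.0162) by edgeR's quasi-likelihood test. EHMT2 in NK92MI cells was counted at 40.4, 39.3 and 35.8 CPM with BIX-01294 and 57.1, 61.6 and 54.3 CPM with DMSO. Its log2 fold change was −0.58 (SE 0.08, adjusted p = 0.000101) by the same test. For the KO mice, the paper reports complete deletion of Ehmt2 in spleen NK cells by Western blot, which measures protein. The source of the Ehmt2 RNA still counted in KO was not tested. All 12 mouse NK cell markers were detected, with sums of 10867 to 12639 CPM (KO) and 5600 to 9650 CPM (WT). In NK92MI cells 10 of 12 NK cell markers lay above 10 CPM in every library, and FCER1G and TYROBP did not pass 1.42 CPM in any.

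In KO NK cells, many genes of G2 and mitosis were lower. None of the 11 genes of origin licensing and the helicase was called, in a set too small to tell this from 7.43% of all genes. Of these 11, 5 had every KO replicate below every WT replicate and 1 above, against 19.3% and 19.1% of all genes tested. The D-type cyclins were higher relative to the other genes of a library. They were not higher relative to the NK cell markers, which themselves had log2 fold changes above 0. With edgeR's quasi-likelihood test at an adjusted p under 0.05, 23 of the 59 members were lower in KO than in WT NK cells and 3 were higher, against 7.43% lower and 4.44% higher among the 13189 genes tested. Of the 29 G2/M members 19 were lower and none was higher, and their median log2 fold change was −0.70, while the median of all genes tested was 0.01. Of these 29, 25 had every KO replicate below every WT replicate, which held for 19.3% of all genes tested. Of the 27 G1/S members 4 were lower and 2 higher, with a median of −0.28. For 12 of these 27 the highest KO value lay under the lowest WT value, and for 4 the order was the opposite. Among all genes tested these shares were 19.3% and 19.1%, so a decrease without overlap was more frequent in G1/S members too. At an unadjusted p under 0.05 the members counted 37 lower and 4 higher, against 20% and 15.8% of all genes tested. The G1/S members made up 12 of these lower and 3 of these higher genes. At the thresholds of the study, which ask for a |log2 fold change| over 0.5 and an adjusted p under 0.01, edgeR called no member and no other gene, while DESeq2, the tool of the study, called 23 members lower and 1 higher (Ccnd2), against 8.33% lower and 3% higher among all genes tested. DESeq2 at an adjusted p under 0.05 called 35 members lower and 3 higher, against 15.1% and 8.33% of all genes tested. The number of calls by edgeR depended on which library was left out, over the whole table as among the members. Without KO replicate 2 or without KO replicate 3, 0 genes of the whole table were called in either direction, and without WT replicate 3 no member and 8 genes in all were lower. Without WT replicate 1, 2 members (E2f8 and Ube2c) were lower, against 0.48% of all genes tested, without KO replicate 1 20 members, against 9.96%, and without WT replicate 2 31 members, against 15.6%. The number of higher members was 0 without KO replicate 2, KO replicate 3, WT replicate 1 or WT replicate 3, 2 without KO replicate 1 and 3 without WT replicate 2, against 5.17% and 10.7% of all genes tested in the last pair. The medians moved less, between −0.82 and −0.64 for G2/M and between −0.35 and −0.21 for G1/S. With the libraries scaled to the summed counts of the 12 NK cell markers the median of all genes moved to −0.83. Then 55 members were lower and none higher, against 65.8% lower and 0.265% higher among all genes tested. The G2/M and G1/S medians, −1.57 and −1.14, were −0.74 and −0.32 relative to all genes, beside −0.72 and −0.30 with TMM. A change of scaling moves all genes by nearly the same amount, so these relative values could not differ much. All 12 markers themselves had a log2 fold change above 0 in KO with TMM (median 0.78, 6 called higher). The paper reports higher mRNA of Prf1, Il2rb and Tbx21, which are on this list, in KO NK cells by RT-qPCR. Scaling to markers that rise lowers the values of other genes, and why the markers rose was not tested.

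**Figure D1:**
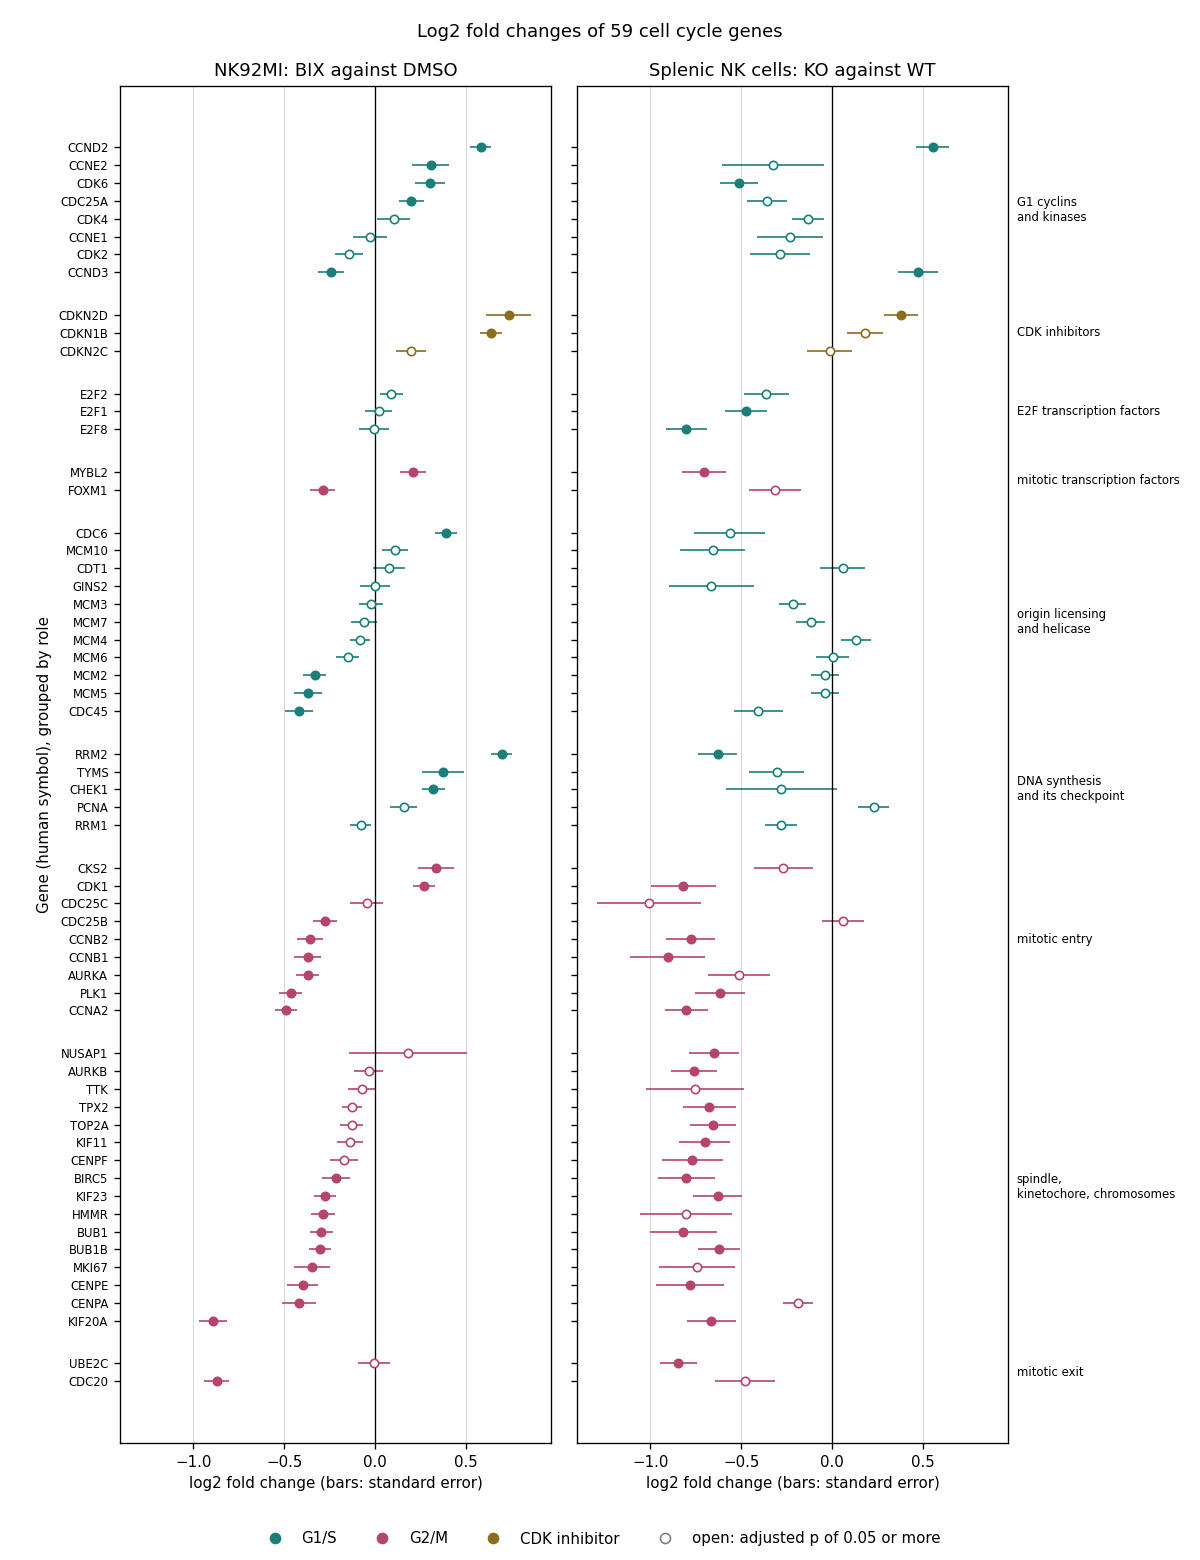
The log2 fold change of each of the 59 members (x axis, with its standard error as a bar) in BIX-01294-treated versus DMSO-treated NK92MI cells (left) and in KO versus WT mouse NK cells (right), one row per gene in groups by role, filled where called. Among G2/M members 28 of 29 lay below 0 in mouse and 25 of 29 in human, while the 3 CDK inhibitors lay above 0 in human.

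The shift between the phases was present in every library. The mean log2 CPM of the G2/M members was 3.61, 3.86 and 3.60 in KO replicates and 4.46, 4.26 and 4.34 in WT replicates. For the G1/S members the means were closer together, at 4.98, 5.03 and 4.88 in KO and 5.27, 5.15 and 5.17 in WT. The difference between the 2 means within a library was −1.37, −1.17 and −1.28 in KO against −0.81, −0.89 and −0.84 in WT, so the groups did not overlap. This difference does not depend on how libraries are scaled. Summed over the 29 genes, G2/M transcripts took 506, 656 and 527 CPM in KO and 894, 824 and 848 CPM in WT replicates. Summed over the 27 G1/S members, to which the D-type cyclins contribute most, the values were 2304, 2473 and 2278 CPM in KO and 2110.0, 2173 and 2083 CPM in WT, so that the sum was above WT in every KO replicate while the mean log2 level was below it. In bulk RNA, fewer cells in cycle and less of these transcripts per cell cannot be told apart.

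Markers of several other cells, but not of all, moved with genotype as well. The 16 erythroid markers summed to 307 to 349 CPM in KO and 489 to 709 CPM in WT, with 15 of 16 below WT in every KO replicate and 14 called lower. The 14 macrophage and monocyte markers summed to 1842 to 3227 CPM in KO and 3243 to 9406 CPM in WT, and 8 were called lower and 1 higher. B cell markers (11 tested of 13, none called by edgeR's test and 9 at an unadjusted p under 0.05, all lower) summed to 102 to 595 CPM in KO and 633 to 1851 CPM in WT. Neutrophil markers (11 tested of 12, 3 lower) summed to 30.8 to 153 CPM in KO and 140 to 1103 CPM in WT. Platelet markers (6 tested, 1 lower) summed to 1246 to 1345 CPM in KO and 1549 to 2463 CPM in WT. The sums overlapped between genotypes for plasma cell markers (39.8 to 122 against 90.5 to 637 CPM, none called of 5 tested). They also overlapped for dendritic cell markers (1121 to 1384 against 1061 to 1389 CPM, 2 lower of 8). T cell markers overlapped as well (97.6 to 222 against 157 to 263 CPM, 1 higher of 9 tested). No marker on these lists was at 0 in all libraries. KO replicate 1 and WT replicate 2 had close sums for macrophages and monocytes (3227 and 3243 CPM) and for B cells (595 and 633 CPM), and their G2/M members summed to 506 and 824 CPM, while the erythroid sums of this pair were 307 and 489 CPM. The part of other cells in the members' differences was not tested.

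**Figure D2:**
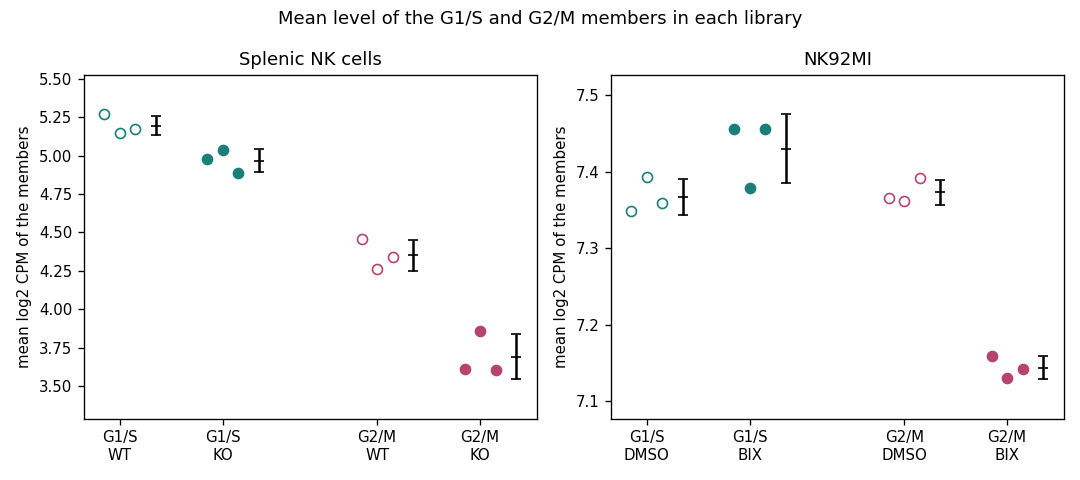
The mean log2 CPM of the 27 G1/S members and of the 29 G2/M members in each library (y axes, which do not start at 0 and differ between panels) for mouse NK cells and NK92MI cells, with each point a library and bars at the mean ± SD. KO libraries lay at 3.60 to 3.86 for G2/M against 4.26 to 4.46 in WT, and BIX-01294-treated libraries at 7.13 to 7.16 against 7.36 to 7.39 with DMSO.

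Cyclins and kinases of G1 went in both directions in KO NK cells. Ccnd2, a D-type cyclin induced by cytokine signalling (chromosome 6 from 127125162 to 127152193 in GRCm38, minus strand), was counted at 297, 349.6 and 347 CPM in KO and 225, 235 and 218 CPM in WT replicates. It rose with a log2 fold change of 0.55 (SE 0.09, adjusted p = 0.0279) by edgeR's test. Ccnd3, the D-type cyclin with the highest level per kilobase of the members in WT cells (67.5 CPM per kb), was counted at 813, 892 and 762 CPM in KO and 534, 642 and 603 CPM in WT. It rose with a log2 fold change of 0.47 (SE 0.11, adjusted p = 0.0419) by edgeR's test. Every KO replicate was above every WT replicate for both cyclins. Their kinase partner Cdk6 was at 33.8, 40.1 and 38.2 CPM in KO and 58.2, 50.1 and 51.6 CPM in WT, and fell with a log2 fold change of −0.51 (SE 0.10, adjusted p = 0.0343). The other 5 genes of this role, among them the E-type cyclins of the G1/S transition, were not called. With the scaling to NK cell markers the values of Ccnd2 and Ccnd3 changed sign, to −0.29 and −0.35. They stayed above the median of all genes (−0.83), which a scaling moves by nearly the same amount as each gene. Their adjusted p-values over the settings tried ran from 1.98e-05 to 0.302 for Ccnd2 and from 0.000947 to 0.202 for Ccnd3, and none of the 3 called genes passed without KO replicate 2, KO replicate 3, WT replicate 1 or WT replicate 3.

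Of the CDK inhibitors, Cdkn2d, which encodes p19INK4d and blocks CDK4 and CDK6, was at 96.4, 92 and 90.3 CPM in KO and 63.8, 76.9 and 74 CPM in WT replicates, with no overlap. It rose by edgeR's test, with a log2 fold change of 0.38 (SE 0.09, adjusted p = 0.0455), though not without any single library other than WT replicate 2 (adjusted p 0.00946 to 0.157 over the settings), and it changed sign to −0.44 with the scaling to NK cell markers. Cdkn1b, the gene of p27KIP1, which inhibits CDK2, was at 155, 163 and 183 CPM against 133, 154 and 155 CPM, so the groups overlapped, and its log2 fold change was 0.18 (SE 0.10, adjusted p = 0.224). Cdkn2c, the gene of p18INK4c, was at 18.6, 22.4 and 22.3 CPM against 19.1, 22.9 and 22 CPM with a log2 fold change of −0.01 (SE 0.12, adjusted p = 0.941).

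E2F factors were lower where called. E2f8, an atypical E2F that represses E2F targets and is itself expressed in cycling cells, was at 17.1, 21.2 and 19.8 CPM in KO and 31.8, 34 and 35.5 CPM in WT replicates. It fell by 42.6%, a log2 fold change of −0.80 (SE 0.11, adjusted p = 0.0239) by edgeR's test. The activator E2f1 was at 12.2, 14.1 and 12 CPM against 18.7, 17.8 and 16.7 CPM and fell with a log2 fold change of −0.47 (SE 0.12, adjusted p = 0.0452). For both genes the KO replicates lay below the WT replicates without overlap. Mybl2, which joins the MuvB core to switch on mitotic genes, was at 8.10, 7.97 and 7.40 CPM against 13.4, 12.9 and 11.9 CPM, again without overlap, and fell with a log2 fold change of −0.70 (SE 0.12, adjusted p = 0.0279). None of these was called without KO replicate 2, KO replicate 3 or WT replicate 3, E2f1 was also lost without KO replicate 1, and E2f8 alone of the 3 was called without WT replicate 1 (adjusted p = 0.0462, within 4.21e-07 to 0.131 over the settings).

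Among genes that license and open replication origins, edgeR's test called none of 11, against 7.43% lower and 4.44% higher among all genes tested. At an unadjusted p under 0.05, 5 were lower and none higher, against 20% lower among all genes tested. The 6 subunits of the MCM2 to MCM7 helicase ring, which unwinds DNA at the fork, had log2 fold changes between −0.22 and 0.13 with a median of −0.04. Mcm10, which activates the ring, was at 5.44, 5.82 and 5.35 CPM in KO and 10.5, 7.10 and 8.60 CPM in WT, and had a log2 fold change of −0.66 (SE 0.18, adjusted p = 0.0515). Cdc45, a partner of the ring in the active helicase, was at 6.66, 7.30 and 6.31 CPM against 8.69, 8.73 and 9.43 CPM with −0.41 (SE 0.14, adjusted p = 0.0794). In both genes each KO replicate lay below each WT replicate, and Mcm10 passed the threshold in 5 of the 14 alternative settings (adjusted p 0.00299 to 0.165 over the settings).

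Among the genes of DNA synthesis, Rrm2, the S phase subunit of ribonucleotide reductase, was at 20.3, 23.5 and 21.6 CPM in KO and 34.9, 35.9 and 30.4 CPM in WT replicates. It fell by 35.3%, with a log2 fold change of −0.63 (SE 0.11, adjusted p = 0.0279) by edgeR's test (adjusted p 5.80e-05 to 0.131 over the settings). It was not called without KO replicate 2, KO replicate 3, WT replicate 1 or WT replicate 3. Pcna, the sliding clamp of DNA polymerases and also a repair factor, was at 146, 139 and 129 CPM against 121, 111 and 122 CPM, so that every KO replicate was above every WT replicate. Its log2 fold change was 0.23 (SE 0.08, adjusted p = 0.0976), which edgeR did not call, and −0.62 with the scaling to NK cell markers. The remaining 3 genes of this role were not called.

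Of the 9 genes of mitotic entry, 5 that encode cyclins or kinases had lower RNA in KO NK cells, none was higher and 4 were not called. Among all genes tested 7.43% were lower and 4.44% higher. Ccna2, the cyclin of S phase and G2 (chromosome 3 from 36564865 to 36572150 in GRCm38, minus strand), was at 19.4, 23.9 and 19.4 CPM in KO and 39.4, 36.5 and 33.4 CPM in WT replicates. It fell by 42.6%, with a log2 fold change of −0.80 (SE 0.12, adjusted p = 0.0241) by edgeR's test. Cdk1, the kinase that drives mitosis, was at 9.93, 8.08 and 7.13 CPM against 15.6, 12.1 and 16.7 CPM and fell with a log2 fold change of −0.82 (SE 0.18, adjusted p = 0.0387). Ccnb2, a B-type cyclin that activates Cdk1, was at 15.1, 17.4 and 13.4 CPM against 29.4, 24.2 and 24.9 CPM and fell with a log2 fold change of −0.78 (SE 0.13, adjusted p = 0.0279). Plk1, a kinase of centrosomes and spindle assembly, was at 12, 15 and 12.9 CPM against 23.2, 19.9 and 18.2 CPM and fell with a log2 fold change of −0.62 (SE 0.14, adjusted p = 0.0403). In all 4 the KO replicates stood below the WT replicates without overlap. Cdc25c, with the lowest log2 fold change of all members, −1.01 (SE 0.29, adjusted p = 0.0578), was named after its values were seen and rests on 1.09, 0.835 and 1.48 CPM against 2.21, 2.33 and 2.31 CPM. The 4 called genes were not called without KO replicate 2, KO replicate 3, WT replicate 1 or WT replicate 3, nor Plk1 without KO replicate 1, and the highest adjusted p over the settings was 0.150 (Cdk1).

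The spindle, kinetochore and chromosome group held the most calls, 12 lower and none higher of 16, against 7.43% and 4.44% of all genes tested. All 16 had a log2 fold change below 0. Top2a, the topoisomerase that untangles sister chromatids, was at 54.3, 73.9 and 60.5 CPM in KO and 108, 93.5 and 95.8 CPM in WT replicates. It fell by 36.6%, with a log2 fold change of −0.66 (SE 0.13, adjusted p = 0.0327) by edgeR's test. Aurkb and Birc5, the kinase and survivin of the chromosomal passenger complex, fell with log2 fold changes of −0.76 (SE 0.13, adjusted p = 0.0279) and −0.80 (SE 0.15, adjusted p = 0.0327). Aurkb was at 12.2, 13.3 and 10.9 CPM against 21.8, 18.2 and 21.5 CPM and Birc5 at 9.55, 13.4 and 11.1 CPM against 21.6, 20.2 and 17.4 CPM. Bub1b, the checkpoint protein BUBR1, was at 15.9, 16.2 and 16.1 CPM against 27.9, 24.2 and 21.9 CPM and fell with a log2 fold change of −0.62 (SE 0.12, adjusted p = 0.0317). These 4 genes had no overlap between genotypes, and each was called without KO replicate 1 or WT replicate 2 but not without any of the other 4 libraries. Mki67, the gene of the proliferation antigen Ki-67, was at 75.4, 142 and 94.3 CPM in KO and 174, 172 and 176 CPM in WT replicates. The KO libraries stood below the WT libraries, KO replicate 2 by the least, and its log2 fold change of −0.74 (SE 0.21, adjusted p = 0.0551) missed the threshold by edgeR and passed it in 6 of the 14 alternative settings, DESeq2 and limma-voom among them (adjusted p 0.000407 to 0.18 over the settings).

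For mitotic exit, Ube2c, the E2 enzyme of the anaphase-promoting complex (chromosome 2 from 164769898 to 164778822 in GRCm38, plus strand), had the smallest adjusted p of all members. It was at 20.4, 23.5 and 19.7 CPM in KO and 40.4, 36.9 and 37 CPM in WT replicates, so the KO values were well below the WT values. It fell by 44.3%, with a log2 fold change of −0.84 (SE 0.10, adjusted p = 0.0188) by edgeR's test. It was not called without KO replicate 2, KO replicate 3 or WT replicate 3. Of its exon bases 22.8% overlap Tnnc2 on the other strand, and the strand setting of the counting is not given in the sources used here. Cdc20, the activator of the same complex, was not called in mouse, at 12.5, 18.1 and 13.1 CPM against 21.4, 18.2 and 21.2 CPM, with a log2 fold change of −0.48 (SE 0.16, adjusted p = 0.0851); it is named here because of its value in human cells.

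**Figure D3:**
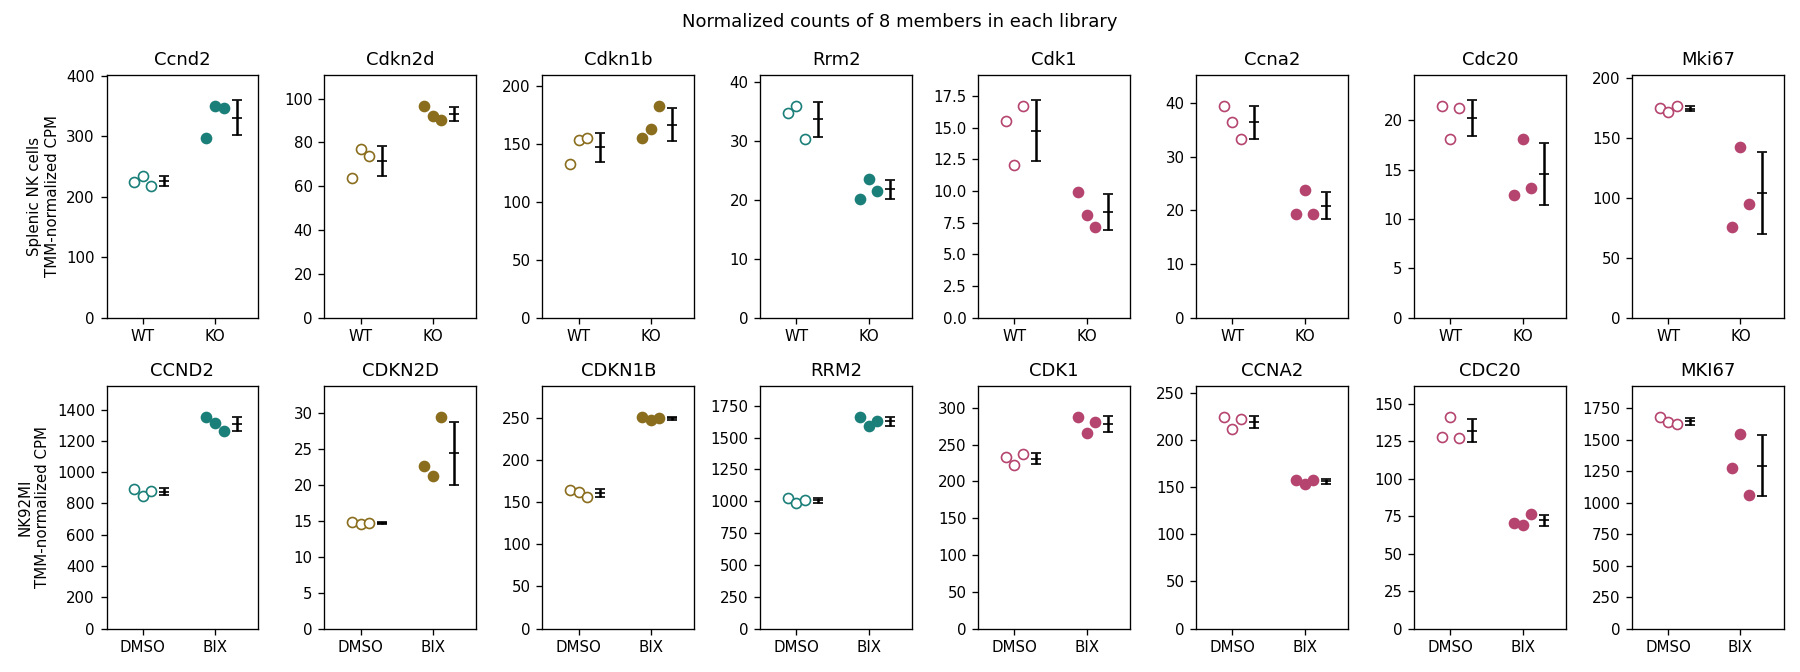
CPM of 8 members in each library (y axes, linear from 0, one per panel) for mouse NK cells (upper row) and NK92MI cells (lower row), with each point a library and bars at the mean ± SD. KO libraries of Ccna2 (19.4 to 23.9 CPM) lay below WT (33.4 to 39.4 CPM), and BIX-01294-treated libraries of RRM2 (1589 to 1660.0 CPM) lay above DMSO (984 to 1023 CPM).

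In NK92MI cells treated with BIX-01294, a pair of CDK inhibitors and some genes of S phase rose, and most of the called genes of G2 and mitosis fell. By edgeR's quasi-likelihood test at an adjusted p under 0.05, 21 of the 59 members were lower and 13 higher, against 18.4% lower and 18.4% higher among the 12727 genes tested. Of the 29 G2/M members 17 were lower and 3 higher, at a median log2 fold change of −0.28, and of the 27 G1/S members 8 were higher and 4 lower, with a median of 0.02. The median of all genes tested was −0.01. Every treated library lay below every DMSO library in 18 of the 29 G2/M members, against 23.9% of all genes tested. At the thresholds of the study 4 members were higher (CCND2, RRM2, CDKN1B and CDKN2D) and 2 lower (KIF20A and CDC20), against 6.24% and 5.43% of all genes, and DESeq2 gave 4 and 2 members as well, against 6.39% and 5.27%. The higher count was 7 of 59 without BIX-01294 replicate 1, against 14.1% of all genes tested. It was 9 to 14 without any other single library, against 14.2% to 19.8%, so the higher counts stayed near the share of all genes. The lower count was between 18 and 23, against 12.5% to 18.7% of all genes tested. The mean log2 CPM of the G2/M members was 7.16, 7.13 and 7.14 with BIX-01294 and 7.37, 7.36 and 7.39 with DMSO. For the G1/S members it was 7.46, 7.38 and 7.46 with BIX-01294 and 7.35, 7.39 and 7.36 with DMSO, so the groups overlapped. The difference of the 2 means within a library was −0.30, −0.25 and −0.31 with BIX-01294 and 0.02, −0.03 and 0.03 with DMSO, with no overlap.

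CCND2 was the G1 cyclin with the largest change, at 1350.3, 1311 and 1262 CPM with BIX-01294 and 894, 849 and 881 CPM with DMSO. It rose by 49.5%, a log2 fold change of 0.58 (SE 0.06, adjusted p = 5.55e-06) by edgeR's test. CDK6 was at 1001, 1069 and 837 CPM against 806, 724 and 829 CPM and rose with a log2 fold change of 0.30 (SE 0.08, adjusted p = 0.0126), with BIX-01294 replicate 3 close to the highest DMSO library. CCND3, at 183, 167 and 194 CPM against 206, 224 and 213 CPM, fell with a log2 fold change of −0.24 (SE 0.07, adjusted p = 0.0141). CCNE2, an E-type cyclin that activates CDK2, rose with a log2 fold change of 0.30 (SE 0.10, adjusted p = 0.0299), and 37.1% of its exon bases are shared with INTS8. The calls of CDK6 and CCND3 were lost without BIX-01294 replicate 1 (adjusted p = 0.0574 and 0.0559) or without one of the DMSO libraries (0.0712 and 0.0642), and that of CCNE2 without either of 2 BIX-01294 replicates or either of 2 DMSO libraries (0.0690 to 0.127).

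Among CDK inhibitors, CDKN1B was at 251, 247 and 250.2 CPM with BIX-01294 and 164, 162 and 156 CPM with DMSO, with tight replicates in both groups. It rose by 55.2%, a log2 fold change of 0.63 (SE 0.06, adjusted p = 3.06e-06) by edgeR's test. CDKN2D was at 22.5, 21.2 and 29.3 CPM against 14.8, 14.5 and 14.7 CPM and rose by 66.3%, a log2 fold change of 0.73 (SE 0.12, adjusted p = 0.000449). CDKN2C, at 145, 143 and 172 CPM against 131, 145 and 126 CPM, overlapped between groups, and its log2 fold change of 0.19 (SE 0.08, adjusted p = 0.074) missed the threshold except without BIX-01294 replicate 2 (adjusted p = 0.0147, within 0.0147 to 0.262 over the settings).

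No E2F gene was called in NK92MI cells. E2F1 was at 188, 182 and 213 CPM against 184, 204 and 188 CPM with a log2 fold change of 0.02 (SE 0.07, adjusted p = 0.875) by edgeR's test, which turned to −0.05 without BIX-01294 replicate 3 and to −0.01 without one of the DMSO libraries, and E2F2 had 0.09 (SE 0.06, adjusted p = 0.305). The pair of mitotic factors went opposite ways. FOXM1 was at 99.3, 105 and 91.2 CPM with BIX-01294 and 121, 123 and 117 CPM with DMSO and fell with a log2 fold change of −0.29 (SE 0.07, adjusted p = 0.0046). MYBL2 was at 277, 255 and 292 CPM against 226, 261 and 228 CPM and rose with a log2 fold change of 0.21 (SE 0.07, adjusted p = 0.0407), but its groups overlapped and it was not called without BIX-01294 replicate 1, BIX-01294 replicate 3 or either of 2 DMSO libraries (adjusted p 0.0731 to 0.180).

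Of the 11 genes of origin licensing and the helicase 1 rose (9.09%) and 3 fell (27.3%), against 18.4% of all genes tested in each direction. CDC6, which loads the MCM ring onto origins, was at 173, 165 and 178 CPM with BIX-01294 and 134, 130.2 and 129.9 CPM with DMSO and rose with a log2 fold change of 0.39 (SE 0.06, adjusted p = 0.000249) by edgeR's test. CDC45 was at 66.8, 63 and 75.6 CPM against 89.9, 93 and 91.9 CPM and fell with a log2 fold change of −0.42 (SE 0.08, adjusted p = 0.000724). Of the ring itself, MCM2 and MCM5 fell with log2 fold changes of −0.33 (SE 0.06, adjusted p = 0.00111) and −0.37 (SE 0.08, adjusted p = 0.00171), and the other 4 subunits were not called, with the 6 together between −0.37 and −0.02. Each of the 4 called genes was separated between the groups. Of the exon bases of MCM2, 23.6% are shared with another gene.

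Genes of DNA synthesis and its checkpoint were higher in 3 of 5 cases and lower in none, against 18.4% of all genes tested in each direction. RRM2 (chromosome 2 from 10120698 to 10211725 in GRCh38, plus strand) was at 1660.3, 1589 and 1634 CPM with BIX-01294 and 1023, 984 and 1013 CPM with DMSO. It rose by 61.7%, a log2 fold change of 0.69 (SE 0.06, adjusted p = 8.20e-07), the smallest adjusted p of the members by edgeR's test. CHEK1, the kinase of the S phase checkpoint, was at 114, 108 and 110.2 CPM against 88.2, 86.7 and 91.9 CPM and rose with a log2 fold change of 0.32 (SE 0.06, adjusted p = 0.00151), without overlap. TYMS, which makes thymidylate for DNA synthesis, was at 41.4, 30.3 and 36.4 CPM against 26.5, 26.1 and 30.9 CPM with overlapping groups and rose with a log2 fold change of 0.37 (SE 0.11, adjusted p = 0.0212). It was not called without BIX-01294 replicate 1 or either of 2 DMSO libraries (adjusted p 0.0779 to 0.122), and 47.9% of its exon bases overlap ENOSF1 on the other strand. PCNA, at 523, 457 and 560.1 CPM against 451, 469 and 463 CPM, had a log2 fold change of 0.15 (SE 0.07, adjusted p = 0.112) and was called only without BIX-01294 replicate 2 (adjusted p = 0.00296, within 0.00296 to 0.299 over the settings).

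Of the 9 genes of mitotic entry 6 fell (66.7%) and 2 rose (22.2%), against 18.4% of all genes tested in each direction. The number that rose was thus near that share. CCNA2 was at 158, 153 and 157 CPM with BIX-01294 and 224, 212 and 222 CPM with DMSO, and it fell by 28.8%, a log2 fold change of −0.49 (SE 0.06, adjusted p = 3.17e-05) by edgeR's test. PLK1 was at 97, 95.9 and 106 CPM against 135, 141 and 136 CPM and fell with a log2 fold change of −0.47 (SE 0.06, adjusted p = 9.86e-05). AURKA, the kinase of spindle poles, was at 137, 127 and 138 CPM against 177, 176 and 169 CPM and fell with −0.37 (SE 0.06, adjusted p = 0.000427), and CCNB1 was at 182, 169 and 206 CPM against 233, 250.2 and 237 CPM and fell with −0.37 (SE 0.07, adjusted p = 0.00153). Treated and DMSO libraries did not overlap in these 4 genes. CDK1, in contrast with its cyclins, was at 287, 265 and 281 CPM with BIX-01294 and 233, 222 and 237 CPM with DMSO and rose with a log2 fold change of 0.27 (SE 0.06, adjusted p = 0.00391), again without overlap. The other gene that rose was CKS2, a small subunit of CDK complexes, named after its values were seen, with 0.33 (SE 0.10, adjusted p = 0.0174) and overlapping groups.

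Of the 16 spindle, kinetochore and chromosome genes 9 fell and none rose, against 18.4% of all genes tested in each direction. KIF20A, a kinesin of the central spindle (chromosome 5 from 138178719 to 138187723 in GRCh38, plus strand), was at 52.4, 52.6 and 49.4 CPM with BIX-01294 and 90.3, 105 and 90.8 CPM with DMSO. It fell by 46.1%, a log2 fold change of −0.89 (SE 0.08, adjusted p = 1.74e-06) by edgeR's test, the lowest of the members. BUB1 and BUB1B, kinases of the spindle checkpoint family, were at 413, 398 and 382 CPM against 507, 473 and 485 CPM and at 196, 211 and 199 CPM against 244, 257 and 248 CPM and fell with log2 fold changes of −0.30 (SE 0.06, adjusted p = 0.00183) and −0.30 (SE 0.06, adjusted p = 0.00153). CENPE, a kinetochore motor, was at 150.0, 154 and 123 CPM against 199, 171 and 193 CPM and fell with −0.40 (SE 0.09, adjusted p = 0.00258). In these 4 genes all treated libraries lay below all DMSO libraries. MKI67 was at 1275, 1544 and 1064 CPM with BIX-01294 and 1679, 1639.6 and 1622 CPM with DMSO, with BIX-01294 replicate 3 lowest and replicate 2 nearest to the DMSO libraries. It fell with a log2 fold change of −0.35 (SE 0.10, adjusted p = 0.0139), which was not called without BIX-01294 replicate 1 (adjusted p = 0.0600, within 6.46e-06 to 0.06 over the settings). TOP2A, at 1772, 1872 and 1626 CPM against 1979, 1867 and 1919.8 CPM, overlapped between groups and had a log2 fold change of −0.13 (SE 0.06, adjusted p = 0.125), called only without BIX-01294 replicate 2 (adjusted p = 0.0177). NUSAP1, named after its values were seen, was counted at only 2.13, 2.35 and 1.83 CPM against 1.63, 1.11 and 2.84 CPM, and 86.8% of its exon bases are shared with another annotated gene on the same strand, so its count is uncertain.

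CDC20, which activates the anaphase-promoting complex (chromosome 1 from 43358981 to 43363203 in GRCh38, plus strand), was at 70.7, 69.2 and 76.5 CPM with BIX-01294 and 128, 141 and 127 CPM with DMSO. It fell by 45.3%, a log2 fold change of −0.87 (SE 0.07, adjusted p = 8.76e-07) by edgeR's test, and all treated libraries lay far below the DMSO libraries. UBE2C, the E2 enzyme of the same complex, was not called, with −0.01 (SE 0.09, adjusted p = 0.948).

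The comparisons in mouse and human were fitted separately, and their difference was not tested. Side by side, 10 members were lower in both, all of G2/M, and 2 were higher in both, CCND2 and CDKN2D, although the mouse values of these 2 change sign with the scaling to NK cell markers. Called in opposite directions were RRM2, CDK6, CDK1 and MYBL2, higher in NK92MI cells and lower in KO NK cells, and CCND3, lower in NK92MI cells and higher in KO NK cells, the last with the same change of sign in mouse under that scaling. The log2 fold changes had the same sign in 24 of 29 G2/M members and 13 of 27 G1/S members. Because 28 of the 29 G2/M members lay below 0 in mouse and 25 in human, most would share a sign however genes were matched. Likewise, 19 were called lower in mouse and 17 in human, so shared calls would arise without agreement gene by gene. Within each phase the log2 fold changes were not positively correlated across genes (Spearman −0.18 for G2/M and −0.30 for G1/S). Levels per kilobase of exon differed between the cells. In DMSO-treated NK92MI cells PCNA (329 CPM per kb) and TOP2A (302 CPM per kb) stood highest, and in WT mouse NK cells Ccnd3 (67.5 CPM per kb) and Pcna (49.2 CPM per kb), with Top2a at 11 CPM per kb.

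**Figure D4:**
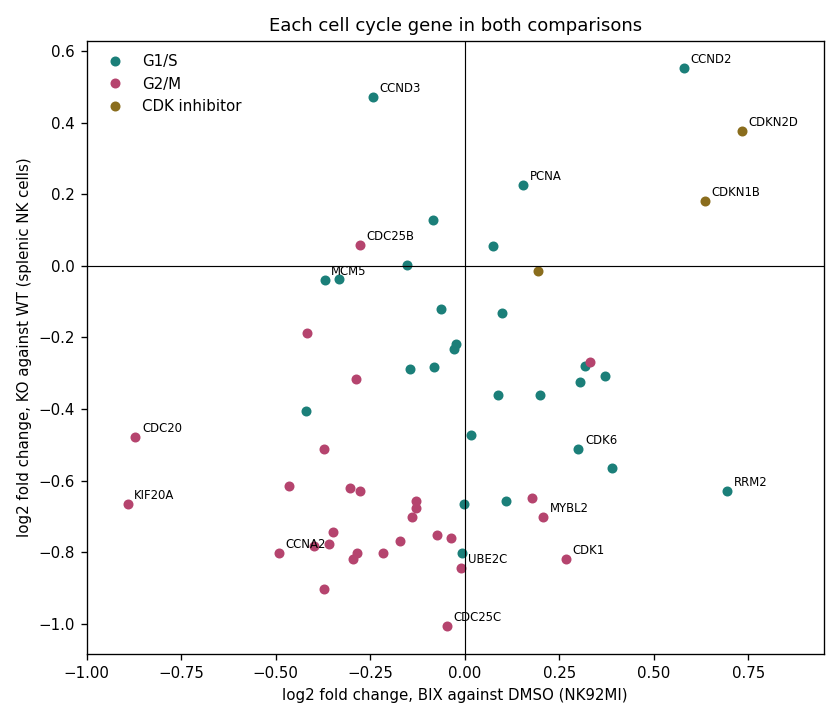
The log2 fold change with BIX-01294 in NK92MI cells (x axis) against that in KO NK cells (y axis) for the 59 members, each point a gene coloured by phase. Most G2/M members (24 of 29) lie below 0 on both axes, without a positive correlation across them (Spearman −0.18). RRM2, CDK6, CDK1 and MYBL2 lie to the right and below 0.

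Other genes of the same phases, on lists not sharing members with the 59, were counted in the same fits, where 7.43% of all genes tested were lower and 4.44% higher in mouse and 18.4% were called in each direction in human. In mouse, 9 of 33 other G2/M genes were lower and none higher (median log2 fold change −0.39), and 4 of 30 other S phase genes were lower and none higher (median −0.14). Gas2l3, a midbody protein, was at 1.74, 1.67 and 1.81 CPM in KO and 4.96, 3.72 and 4.08 CPM in WT replicates and fell with a log2 fold change of −1.29 (SE 0.21, adjusted p = 0.0275) by edgeR's test. Clspn, the adaptor of the checkpoint kinase Chk1, was at 7.02, 9.78 and 7.76 CPM against 15, 14.8 and 13.4 CPM and fell with −0.81 (SE 0.15, adjusted p = 0.0323). In NK92MI cells 11 of 31 other G2/M genes were lower and 3 higher (median −0.13), and 13 of 30 other S phase genes were higher and 2 lower (median 0.16). NUF2, a kinetochore subunit, was at 98.8, 98.3 and 95.4 CPM with BIX-01294 and 130.4, 127 and 137 CPM with DMSO and fell with a log2 fold change of −0.43 (SE 0.06, adjusted p = 0.000142) by edgeR's test.

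Brakes on the cycle (pocket proteins, DREAM subunits and antiproliferative genes) were counted in the same fits. In mouse 1 of 25 was lower and none higher, or 4% lower against 7.43% of all genes tested. That gene was Rb1, the retinoblastoma protein that holds E2F factors in check, at 46.2, 49.4 and 48.2 CPM in KO and 63.4, 62.6 and 66.8 CPM in WT, at a log2 fold change of −0.42 (SE 0.08, adjusted p = 0.0305) by edgeR's test. In NK92MI cells 9 of 22 (40.9%) were higher and 3 (13.6%) lower, against 18.4% of all genes tested in each direction. BTG1, an antiproliferative gene of resting lymphocytes, was at 155, 136 and 151 CPM with BIX-01294 and 62.4, 52.6 and 61.7 CPM with DMSO and rose with a log2 fold change of 1.33 (SE 0.08). Its relatives TOB1 and BTG2 rose as well, TOB1 from 22.3, 19.5 and 21.1 to 38.2, 36.8 and 40.0 CPM and BTG2 from 119, 121 and 123 to 184, 172 and 176 CPM, in every library, with log2 fold changes of 0.87 (SE 0.09) and 0.55 (SE 0.06), all 3 past the threshold by edgeR's test. In NK92MI cells the summed level of the 12 NK cell markers was 5369 to 6847 CPM with BIX-01294 and 4651 to 5110 CPM with DMSO. Of the 11 tested, 7 were higher and 2 lower, against 18.4% of all genes tested in each direction. Such a sum of general NK cell genes does not show which cell line was sequenced.

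**Figure D5:**
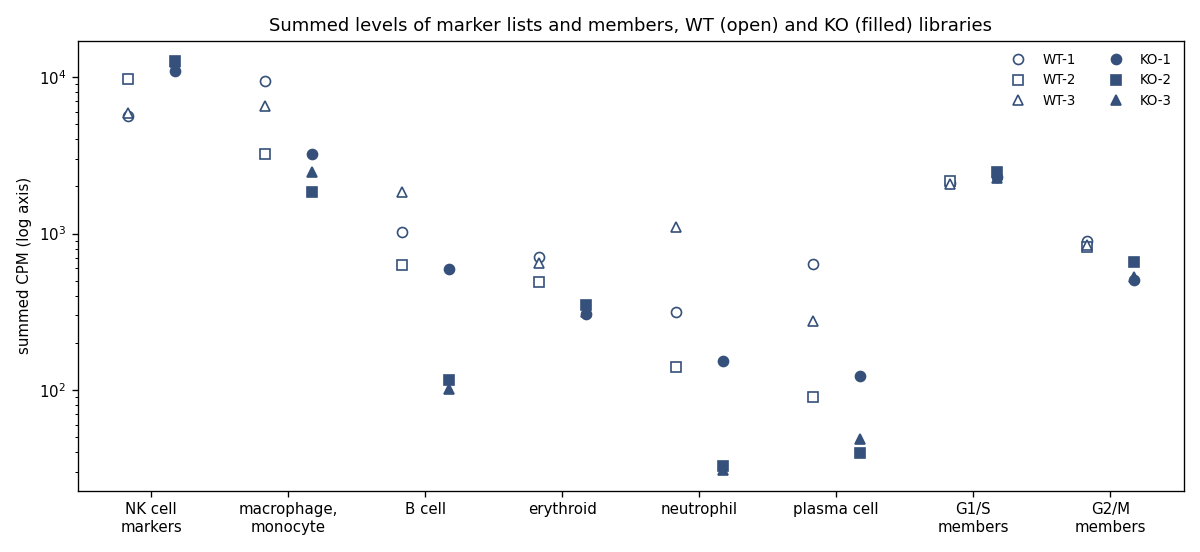
The summed CPM of marker lists and of the G1/S and G2/M members in each mouse library (y axis, log scale), with WT libraries as open and KO libraries as filled symbols. The NK cell list was at 10867 to 12639 CPM in KO against 5600 to 9650 CPM in WT, and the erythroid list at 307 to 349 CPM against 489 to 709 CPM.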

How the data were processed

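RNA-seq counts were analysed for 3 WT and 3 KO libraries of mouse spleen NK cells and 3 BIX-01294-treated and 3 DMSO-treated libraries of NK92MI cells. The authors trimmed reads with fastp 0.23.4, aligned them with STAR 2.7.11b to GRCm38/mm10 or GRCh38/hg38, allowing 2 mismatches, and counted them with HTSeq 2.0.3, and the deposited values are their raw gene counts, with no normalization. The annotation release and the strand setting are not given in the sources used here. Positions, exon lengths and overlaps were taken from GENCODE 44 (human) and M21 (mouse), which are not shown to be the releases the authors used.

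Each table was fitted whole with edgeR 4.0.16 in R 4.3.3 (TMM, filterByExpr, quasi-likelihood test, Benjamini-Hochberg adjustment over all genes tested), with a call at an adjusted p under 0.05. The study's thresholds (adjusted p under 0.01, |log2 fold change| over 0.5), also with DESeq2 as an alternative added after seeing the data, DESeq2 1.42.0, limma-voom (limma 3.58.1), other normalizations and filters, MYBL2 and CHEK1 moved between phases, a replicate block, each library left out in turn and scaling to the NK cell markers were alternatives. Total counts of 16579469 to 37438868 leave little counting error except at the lowest levels. The fits were also run on simulated data with log2 fold changes larger than that of any member, which does not test calls of the size seen here. Members are compared as log2 fold changes with no test over the list.

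Named throughout are MKI67, TOP2A, PCNA, CDK1, the CDK inhibitors and, in each of 9 roles, up to 4 called members with the smallest p (the 2 with the smallest p where none was called); others are named where said. Of the other lists at most 3 called genes are named. The members, lists, phases and tests were chosen with earlier results of these data known. Human control columns are named without a link to a particular DMSO sample, so they were used as a group. The H3K9me2 data were not analysed here.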

Additional observations from a re-analysis of the deposited data

How the results depend on the processing

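In mouse, the number of members higher (3) became 0 with the scaling to NK cell markers and, at the study's thresholds, 0 with edgeR and 1 with DESeq2, and 0 to 3 with single libraries left out. The number lower (23) became 35 with DESeq2, 55 with the scaling to NK cell markers and, at the study's thresholds, 0 with edgeR and 23 with DESeq2, a pairing chosen after seeing the data, and 0 to 31 with single libraries left out. With the scaling to NK cell markers the medians were −1.14 for G1/S and −1.57 for G2/M members, and with single libraries left out they ran from −0.35 to −0.21 and from −0.82 to −0.64. That scaling reversed Ccnd2 (−0.29), Ccnd3 (−0.35), Cdkn1b (−0.65), Cdkn2d (−0.44) and Pcna (−0.62), and Cdkn2c, near 0, ran from −0.088 to 0.064 with single libraries left out, above 0 without KO replicate 1 (0.064), WT replicate 2 (0.041) or WT replicate 3 (0.0041). The cause of these shifts was not tested, except that the scaling lowers all genes together and the study's thresholds are stricter. In human, the number higher (13) was 4 and the number lower (21) was 2 at the study's thresholds, with edgeR and with DESeq2. With single libraries left out these were 7 to 14 and 18 to 23, against 14.1% to 19.8% and 12.5% to 18.7% of all genes tested. The medians then ran from 0.0030 to 0.068 for G1/S and from −0.29 to −0.24 for G2/M members. E2F1 ran from −0.049 (without BIX-01294 replicate 3) to 0.068, and was −0.014 without one of the DMSO libraries. With a replicate block in mouse, 3 members were higher and 26 lower, against 9.8% and 14.6% of all genes tested, but the replicate numbers did not pair the libraries (correlations of deviations 0.281, 0.352 and −0.188, and not every library correlated best with its own number). No paired analysis was possible in human because the control columns carry no replicate link. Of the named values under all alternatives, 351 in human and 232 in mouse kept direction and side of the threshold, 16 and 69 lost the call, 3 and 13 gained it and 2 and 8 reversed. The biological coefficient of variation between libraries was 18.2% in mouse and 7.55% in human, and the lowest mouse members lay near 1 to 3 CPM, where counting error is largest.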
